A study of Mus musculus with 12 samples.

Results

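The antigen receptor signal response genes described here are 9 transcription factor genes, *Nr4a1*, *Nr4a2*, *Nr4a3*, *Egr2*, *Egr3*, *Irf4*, *Irf8*, *Myc* and *Nfatc1*. They were chosen by name out of 18992 genes listed in the data, and all 9 were found. They were measured by single-cell RNA sequencing in CD8+ T cells sorted as PD-1+CD44+ from NZB/W F1 mice, the hybrid of the NZB and NZW strains in which lupus nephritis arises spontaneously. The groups were 12W spleen (mice aged 12 weeks), 28W spleen and 28W kidney (mice aged 28 weeks), with no treatment named for any of them, so every group shares the hybrid background and the sort. The mice of the study were female, and the number of mice behind each group is not given. The labels list 12 samples, 4 per group, but each group's table pools its 4 samples, so each group was taken as 1 library without replicates and no difference between groups could be tested. For 28W spleen the title and the age field of the samples disagree (the field says 12 weeks), and the title was followed.

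When a T cell receptor binds its antigen, calcium entering the cell activates calcineurin, which dephosphorylates NFAT proteins and lets them enter the nucleus. The kinase branches of the same signal induce immediate early genes, among them the EGR zinc finger factors and the NR4A orphan nuclear receptors, whose transcripts appear soon after engagement and decay quickly. IRF4 rises with the strength of the signal, MYC drives growth and ribosome production before division, and persistently high NR4A and NFATc1 are known from T cells exposed to antigen for a long time.

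Levels were expressed as UMIs (unique molecular identifiers, which mark single captured transcripts) per 1000000 UMIs (CPM). The libraries held 6481 to 7135 cells and 29937384 to 34742303 UMIs, divided by the authors into 10 clusters at 12W, 11 in the 28W spleen and 12 for the kidney, with no matching of cluster numbers between libraries. Pairs of libraries shared 52 to 66 cell barcodes. All 8 genes of a CD8+ T cell list were detected in every library, at a summed 4740.2 to 6186 CPM. Markers of other cells were present as well: 9 of the 33 clusters were raised at least 5-fold over the median cluster of their library for B cell, plasma cell, myeloid, dendritic, kidney tubule or erythroid genes. These marked clusters held 15.4% of the cells of 12W spleen, 12.9% of those of 28W spleen and 34.6% of kidney cells, and the log2 differences of the 9 genes between libraries are given with and without them, as are those of other genes where a call changed or a printed direction turned. Kidney cluster 11, with 13.7% of the kidney UMIs, was marked for erythroid genes (1809 CPM). It was also raised for cycling genes (5206 CPM), with the CD8+ T cell list at 5543 CPM. The spleen clusters highest for cycling genes, 10 at 12W and 6 at 28W, were not marked. Kidney values without the marked clusters therefore leave out the main cycling cluster, while those of the spleens keep theirs. The 95% intervals printed are exact Poisson intervals for levels and exact Clopper-Pearson intervals for shares, and they cover counting error only. Because RNA was summed over cells, fewer cells that express a gene and less RNA per cell cannot be told apart.

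The regulatory sequence next to the start of the NR4A and IRF genes is shown. The NR4A members parted from each other in the data. *Irf4* and *Irf8* were high together in several clusters and parted in marked cluster 12 of the kidney, where only *Irf8* was high. RefSeq gave a promoter window for 6 of the 9 genes, and the bases upstream of the start were read on the gene's strand in GRCm38.p6, stopping before the first annotated exon base. The *Nr4a1* window lies at chr15:101266596-101266845 (plus strand, inside the gene's annotated span but outside its exons). That of *Nr4a2* lies at chr2:57124004-57124253 (minus strand). The stretches of *Nr4a3* at chr4:48045055-48045152, *Irf4* at chr13:30748983-30749225 and *Irf8* at chr8:120736108-120736357 are on the plus strand. Capitals mark matches, on either strand, to the EGR motif GCGNGGG, the cyclic AMP response element core TGACGT or the TATA box TATAAA, where matches may overlap.
Nr4a1: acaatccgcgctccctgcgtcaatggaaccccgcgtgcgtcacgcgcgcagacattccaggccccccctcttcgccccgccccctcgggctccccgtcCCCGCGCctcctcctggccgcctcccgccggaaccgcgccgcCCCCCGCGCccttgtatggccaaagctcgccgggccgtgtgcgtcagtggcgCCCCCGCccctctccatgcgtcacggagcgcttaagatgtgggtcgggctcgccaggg
Nr4a2: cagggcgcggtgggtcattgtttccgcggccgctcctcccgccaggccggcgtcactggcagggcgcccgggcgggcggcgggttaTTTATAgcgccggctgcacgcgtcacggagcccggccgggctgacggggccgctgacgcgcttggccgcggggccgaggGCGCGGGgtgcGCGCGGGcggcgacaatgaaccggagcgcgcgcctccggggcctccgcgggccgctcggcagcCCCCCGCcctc
Nr4a3: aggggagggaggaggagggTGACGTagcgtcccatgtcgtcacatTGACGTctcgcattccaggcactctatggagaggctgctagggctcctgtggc
Irf4: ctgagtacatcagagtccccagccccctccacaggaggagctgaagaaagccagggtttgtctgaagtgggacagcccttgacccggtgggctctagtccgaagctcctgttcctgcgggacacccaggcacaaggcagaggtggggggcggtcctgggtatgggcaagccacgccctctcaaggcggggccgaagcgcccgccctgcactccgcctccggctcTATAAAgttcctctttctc
Irf8: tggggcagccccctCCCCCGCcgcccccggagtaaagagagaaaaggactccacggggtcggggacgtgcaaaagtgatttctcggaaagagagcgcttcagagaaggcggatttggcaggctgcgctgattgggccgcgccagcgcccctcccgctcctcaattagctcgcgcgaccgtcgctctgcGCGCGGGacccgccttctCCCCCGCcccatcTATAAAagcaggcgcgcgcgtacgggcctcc

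The 250 bases before the first listed start held the EGR motif in 4 of the 6 genes (*Nr4a1*, *Nr4a2*, *Egr2* and *Irf8*), a motif found in 20.3% of all 32851 RefSeq windows of the same kind. *Nr4a1* had 4 matches, some of them overlapping, and *Nr4a2* and *Irf8* had 3 each. These windows were rich in G and C, at 74.4% for *Nr4a1*, 80.0% for *Nr4a2* and 67.2% for *Irf8*, beside a median of 52.4% over all windows. Among these first windows the response element core occurred in that of *Nr4a3*, with 3 matches of which the stretch printed holds 2, and in 6.47% of all windows. Matches to TATAAA stood in *Nr4a2*, *Irf4* and *Irf8*, 3 of 6 genes, and in 12.4% of all windows. Those of *Irf4* and *Irf8* were at -26 and -31 from the start. That of *Nr4a2* was at -164 and on the other strand. No first window held the NFAT core TGGAAA, the AP-1 motif TGANTCA, the NR4A motif AAGGTCA, an IRF response element or a CArG box. RefSeq lists 5 windows for *Egr2*, and 3 of the later ones, which overlap each other, held the response element core at the same bases and a CArG box, while another held a CArG box and the NFAT core. A match describes the letters only and was not examined for binding.

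**Figure D1:**
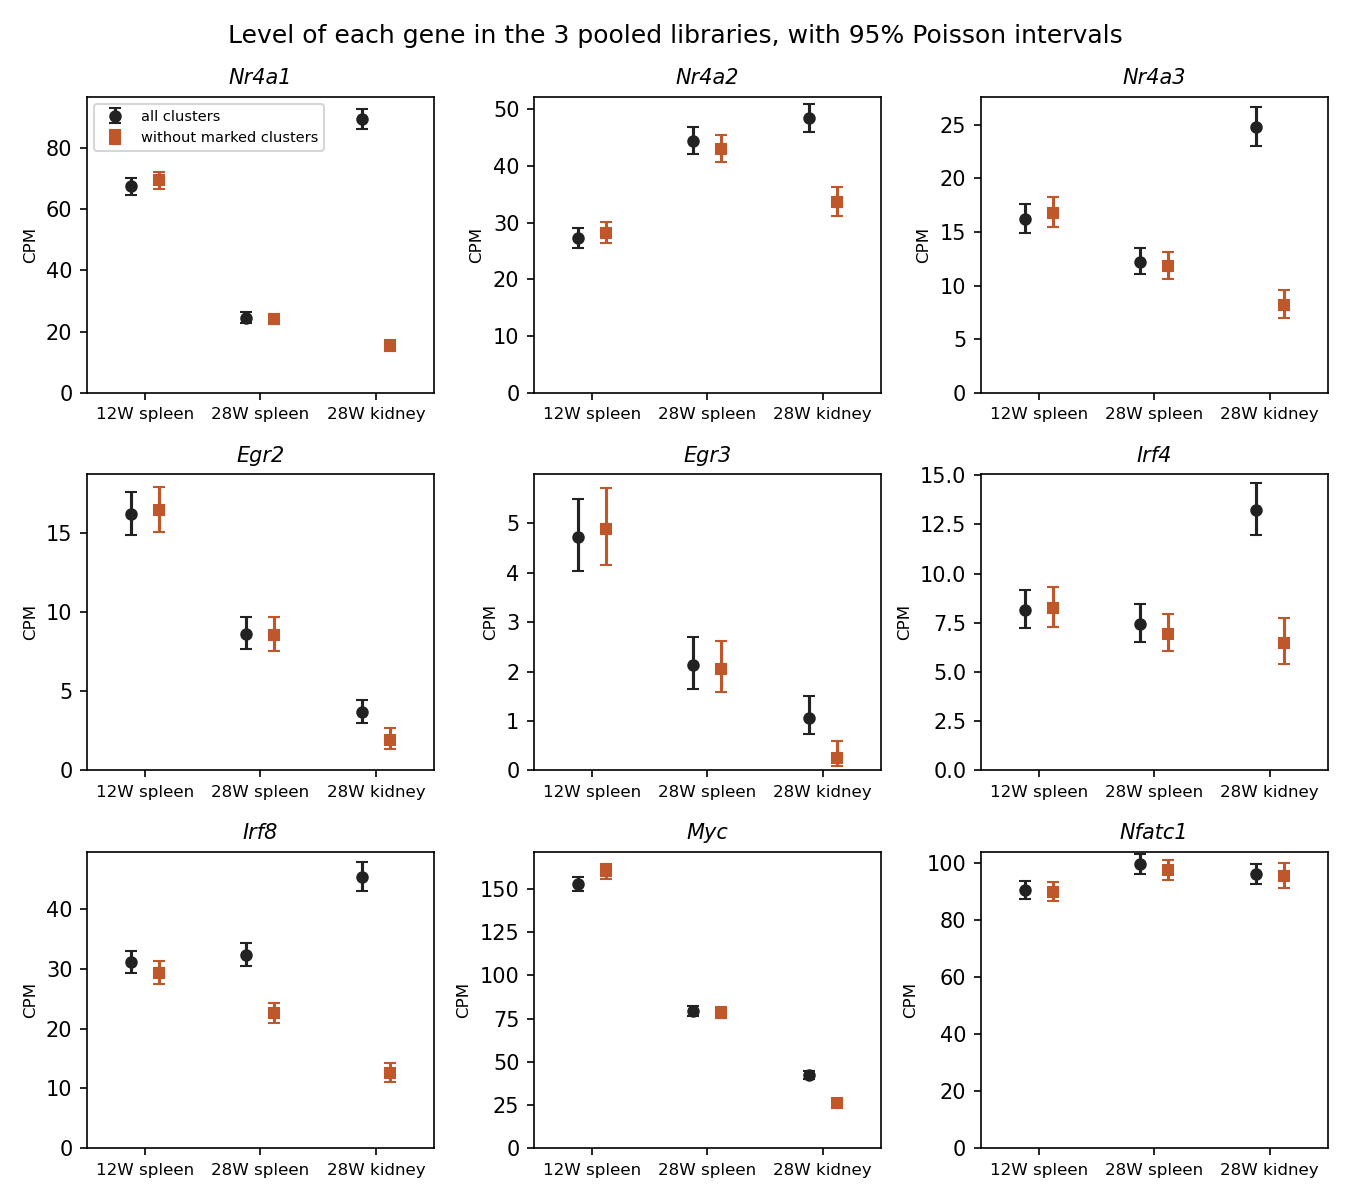
Level of each gene in CPM (vertical axes, from 0) in the 3 pooled libraries (horizontal axes), for all clusters (circles) and without the 9 marked clusters (squares), with 95% Poisson intervals. *Myc*, *Egr2* and *Egr3* were highest in 12W spleen and lowest in 28W kidney with both sets of clusters, while the kidney values of *Nr4a1*, *Nr4a2*, *Nr4a3*, *Irf4* and *Irf8* relative to 28W spleen depended on the marked clusters.

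*Nr4a1*, which encodes NUR77, a nuclear receptor widely used as a reporter of T cell receptor signal, was the member that differed most with age in the spleen. Its level was 67.4 CPM in 12W spleen (95% interval 64.7 to 70.2), 24.6 in 28W spleen (22.9 to 26.4) and 89.3 in 28W kidney (86.0 to 92.8). The intervals of the 3 libraries did not overlap, with 28W spleen the lowest. The log2 difference between 28W and 12W spleen, taken after adding 1 CPM, was -1.42, past 2-fold. It was the only one of 7 members with at least 10 CPM in either library to pass 2-fold in this comparison, beside 0.901% of all 7434 genes lower and 1.79% higher. Without the marked clusters the levels of 12W spleen, 28W spleen and 28W kidney were 69.3, 24.1 and 15.4 CPM, so the age difference was about as large (-1.49, with 1.3% of genes higher and 0.774% lower) while the kidney moved from the highest library to the lowest.

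The kidney value of *Nr4a1* rested on cluster 8 of that library. This cluster held 7.62% of kidney cells and 76.8% of kidney *Nr4a1* UMIs, at 733 CPM (702 to 765), or 3776 UMIs per 1000 cells. The next clusters were 12 (155 CPM) and 9 (38.4), and the remaining 9 clusters lay between 2.59 and 25.6 CPM, so no other kidney cluster came near it. Kidney over 28W spleen gave a log2 difference of 1.82 for all clusters, -0.61 without the marked clusters and -0.10 without cluster 8 alone, a setting chosen after its values were seen. Past 2-fold higher it was again the only one of 7 members with at least 10 CPM, beside 5.31% of 7686 genes higher and 1.34% lower. With the marked clusters left out these shares were 2.55% and 2.22%, and with cluster 8 alone left out 5.27% and 1.81%. Cluster 8 carried B cell markers together with T cell ones: all 8 B cell genes were detected, with *Cd79a* at 1074 CPM and *Ms4a1* at 225, and the T cell gene *Cd3e* at 613 beside 1377 in the other kidney cells. *Cd8a* was at 168 beside 797 and *Pdcd1*, the gene of PD-1, at 24.6 beside 125. The CD8+ T cell list summed to 2401 CPM in cluster 8, beside a median of 5780 over the kidney clusters. Every gene of that list was lower than in the other kidney cells. The summed B cell list stood at 11435 CPM there and at 141 to 25090 CPM over the kidney clusters. *Cd74*, which every antigen-presenting cell type expresses, made up 8718 CPM of the first value, and 24827 CPM of the highest, which was that of cluster 12. *Jchain*, of the plasma cell list, was at 2674 CPM in cluster 8. The part of these cells in the *Nr4a1* level was not tested.

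*Nr4a2*, which encodes the related receptor NURR1, went the other way with age. It stood at 27.3 CPM in 12W spleen (25.6 to 29.1), 44.5 in 28W spleen (42.2 to 46.8) and 48.4 in 28W kidney (46.0 to 51.0). Both 28W libraries lay above 12W spleen, and their intervals overlapped each other. When the marked clusters were left out, 28W spleen was at 43.0 CPM (40.7 to 45.4) and the kidney at 33.7 (31.1 to 36.3), with separate intervals, and kidney cluster 8 held 40.7% of the kidney *Nr4a2* UMIs. The log2 difference with age was 0.68, or 0.59 without the marked clusters, short of 2-fold, and that of kidney over 28W spleen turned from 0.12 to -0.34. *Nr4a3*, the gene of NOR1, differed less in the spleen, with 16.2 CPM at 12W (14.9 to 17.6), 12.2 at 28W (11.1 to 13.5) and 24.8 in 28W kidney (23.0 to 26.6). Its kidney level fell to 8.18 CPM without the marked clusters, below both spleens, and cluster 8 held 71.7% of its kidney UMIs at 190 CPM. Its log2 difference with age was -0.38, and -0.48 without the marked clusters, and that between the organs turned from 0.96 to -0.48.

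The makeup of the NR4A family differed accordingly. UMI counts tally captured 5′ ends and do not grow with transcript length, and a share within the family does not depend on how a library is scaled. *Nr4a1* made up 60.7% of the 3855 NR4A UMIs in 12W spleen (59.2 to 62.3), 30.3% of 2604 in 28W spleen (28.5 to 32.1) and 55.0% of 4866 in 28W kidney (53.5 to 56.4). *Nr4a2* made up 24.6%, 54.7% and 29.8% in the same order. Without the marked clusters the *Nr4a1* share was 60.6%, 30.5% and 27.0%, and the *Nr4a2* share 24.7%, 54.5% and 58.8%, so both 28W libraries then had *Nr4a2* as the larger part and 12W spleen had *Nr4a1*. The *Nr4a3* share stayed between 14.3% and 15.2% in these 6 values.

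By cluster, the *Nr4a1* share ran from 9.76% to 76.5% in 12W spleen with a median of 60.0%, from 10.2% to 75.7% in 28W spleen with a median of 27.5%, and from 7.46% to 81.7% in 28W kidney with a median of 31.4%. It was above 50% in 7 of the 10 clusters at 12W, in 1 of the 11 of 28W spleen and in 3 of the 12 of the kidney. The 1 cluster of 28W spleen was cluster 10, with a B cell list at 20662 CPM, and the 3 of the kidney were 7, 8 and 12, all of them marked clusters. In the unmarked clusters of the 28W libraries the share was thus below 50% throughout, while 6 of the 9 unmarked clusters of 12W spleen were above it.

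**Figure D2:**
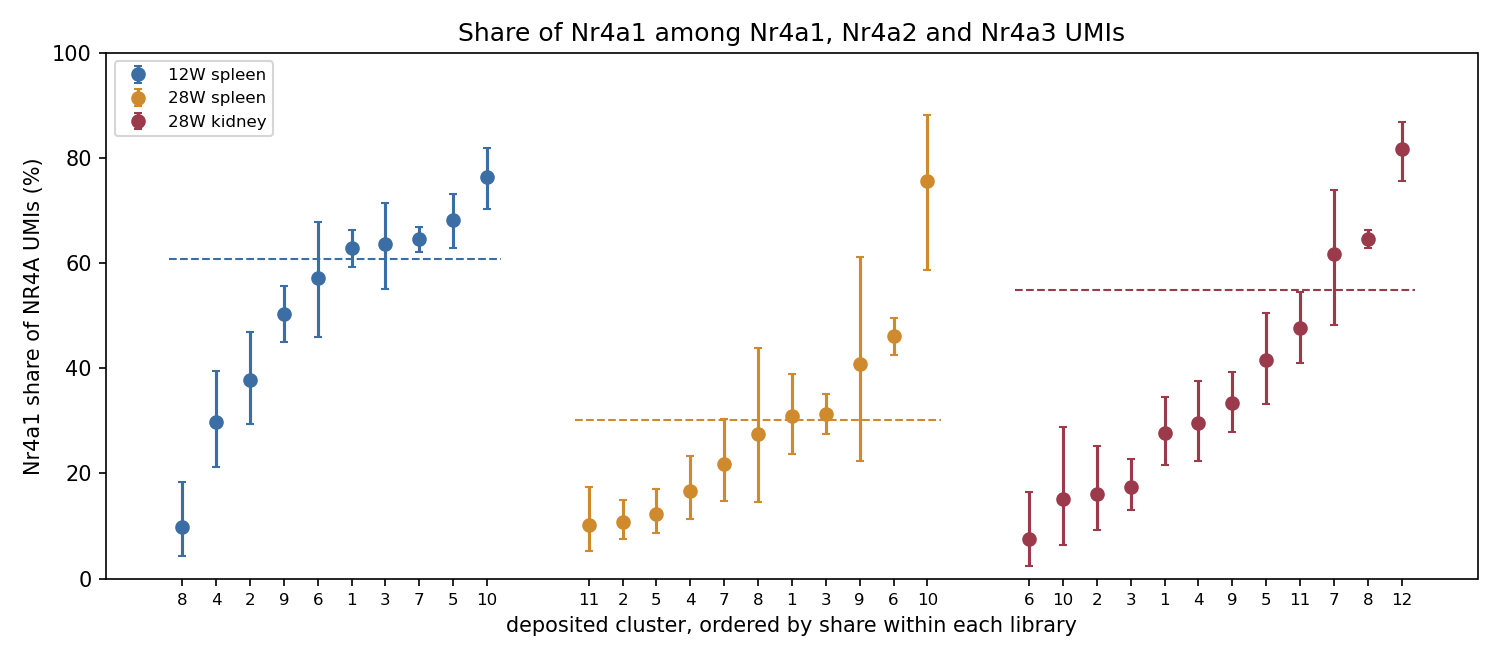
Share of *Nr4a1* among UMIs of *Nr4a1*, *Nr4a2* and *Nr4a3* (vertical axis, percent) in each cluster (points with 95% Clopper-Pearson intervals, ordered within each library), with the library's share as a dashed line. The dashed lines of 12W and 28W spleen are at 60.7% and 30.3%, and that of the kidney is at 55.0%, where cluster 8 alone holds 3176 of the 4866 UMIs.

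*Egr2* and *Egr3* encode zinc finger factors induced by calcium and NFAT, known for restraining T cell activation, and both were lower in 28W spleen than in 12W spleen and lower again in the kidney. *Egr2* had 16.2 CPM in 12W spleen (14.9 to 17.6), 8.65 in 28W spleen (7.66 to 9.73) and 3.67 in 28W kidney (3.02 to 4.43). *Egr3* had 4.72 (4.03 to 5.50), 2.12 (1.65 to 2.69) and 1.07 CPM (0.731 to 1.51). For both genes the 3 intervals were apart. The log2 differences with age were -0.84 for *Egr2* and -0.87 for *Egr3*, and those of kidney over 28W spleen were -1.05 and -0.59. They were, without the marked clusters, -0.87 and -0.95 with age, and -1.70 and -1.28 between the organs. *Egr3* stayed under 10 CPM in every library, and *Egr2* did so in both 28W libraries, so their differences were not counted as past 2-fold in the comparisons where neither library reached 10 CPM. Without the marked clusters *Egr2* was at 1.94 CPM and *Egr3* at 0.256 CPM in the kidney, where only 110 and 32 UMIs of these genes were counted in all.

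Within libraries *Egr2* was highest in cluster 7 of 12W spleen (32.9 CPM) and cluster 8 of the kidney (20.7 CPM), its only clusters past 2-fold over the other cells of their library. Its other 11 kidney clusters had 1.03 to 3.85 CPM with overlapping intervals. *Egr3* reached 9.27 CPM at most, in cluster 9 of 12W spleen, and the neighbouring clusters in its order overlapped in all 3 libraries. Kidney cluster 8 held 22 of the 32 kidney *Egr3* UMIs (68.8%), at 7.85 CPM beside 0.369 CPM in the other kidney cells. No UMI of *Egr3* was found in kidney clusters 1, 5, 7 and 10 or in cluster 9 of 28W spleen. A floor of 3 counts is 0.587, 1.39, 2.02 and 3.87 CPM in these kidney clusters and 6.87 CPM in that spleen cluster. None of *Egr2* was found in cluster 11 of 28W spleen, where the same floor is 10.8 CPM.

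*Irf4* encodes a factor that scales with receptor signal strength and supports effector expansion. It stood at 8.15 CPM in 12W spleen (7.22 to 9.15), 7.43 in 28W spleen (6.52 to 8.44) and 13.2 in 28W kidney (12.0 to 14.6). The spleens overlapped and the kidney was above them, but without the marked clusters the kidney fell to 6.50 CPM (5.41 to 7.73), beside 6.94 CPM (6.04 to 7.94) in 28W spleen, so their intervals overlapped. Its log2 difference was -0.12 with age, or -0.22 without the marked clusters, and that between the organs moved from 0.75 to -0.08. When the highest *Irf4* cluster of each library was left out, 12W spleen was at 3.63 CPM and 28W spleen at 7.12. The log2 difference with age was then 0.81, so the likeness of the spleens depended on single clusters. *Irf8*, the gene of a factor best known from B cells, macrophages and dendritic cells that activated CD8+ T cells also express, stood at 31.1 CPM (29.3 to 33.03), 32.4 (30.4 to 34.4) and 45.3 (42.9 to 47.8). Without the marked clusters the *Irf8* levels were 29.4, 22.5 and 12.5 CPM, with separate intervals, so the order of the libraries was turned around. The log2 difference of kidney over 28W spleen moved from 0.47 to -0.80, and that with age from 0.05 to -0.37.

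The 2 highest *Irf8* clusters of the data were both marked for other cells. Cluster 12 of the kidney had 537 CPM (494 to 584) with all 8 myeloid genes detected, *Lyz2* at 3170 CPM and *C1qa* at 2293, while *Ms4a1* and *Pax5* were at 0 there and *Cd74* was at 24827 CPM. Cluster 10 of 28W spleen had 476 CPM (426 to 530), and it was raised for B cell, plasma cell and myeloid genes alike. All 8 B cell and all 8 myeloid genes were detected there, at a summed 20662 and 1586 CPM, as were all 7 dendritic genes, with *Siglech* at 67.9 CPM and *Xcr1* at 36.1. Of the B cell sum *Cd74* made up 16243 CPM. These clusters held 41.1% and 31.8% of the *Irf8* UMIs of their libraries in 2.58% and 3.81% of the cells. Among unmarked clusters *Irf8* was highest in cluster 7 of 12W spleen (112 CPM) and cluster 6 of 28W spleen (62.1 CPM). *Irf4*, with no UMI in cluster 9 of 28W spleen, was also past 2-fold in both of these, at 35.1 and 20.0 CPM, and the *Irf4* value of cluster 7 made up 61.8% of its UMIs in 12W spleen.

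*Myc*, the gene of a transcription factor that drives nucleotide, polyamine and ribosome synthesis, was highest in 12W spleen and lowest in the kidney with and without the marked clusters. It stood at 153 CPM in 12W spleen (149 to 157), 79.3 in 28W spleen (76.3 to 82.5) and 42.1 in 28W kidney (39.8 to 44.4). The 3 intervals were apart. The log2 differences were -0.94 with age and -0.90 between kidney and 28W spleen, both short of 2-fold. Without the marked clusters the levels were 160, 78.3 and 26.2 CPM, and both differences passed 2-fold (-1.03 and -1.54), beside 0.774% and 2.22% of all genes lower in those comparisons. Cluster 7 of 12W spleen held 50.7% of the *Myc* UMIs of its library at 541 CPM. When the highest cluster of each library was left out, the levels were 88.2, 57.3 and 25.9 CPM, still in that order.

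The medians over clusters were in the same order. The median cluster of 12W spleen had 84.2 CPM of *Myc*, that of 28W spleen 64.5 and that of 28W kidney 25.7. The 10 clusters of 12W spleen ran from 48.4 to 541 CPM, the 11 of 28W spleen from 32.0 to 167 and the 12 of the kidney from 15.0 to 199, so the ranges overlapped. Outside cluster 8 no kidney cluster was above 52.0 CPM, and 9 of the 10 clusters of 12W spleen were at 65.8 CPM or more.

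A list of 11 genes that MYC is known to activate was fixed beside it, with nucleolar proteins, polyamine enzymes and metabolic enzymes. All 11 lay below 0 with age, with a median log2 difference of -0.43 beside -0.10 for all genes, and none passed 2-fold. *Srm*, spermidine synthase, was the lowest, with 142 CPM in 12W spleen and 77.2 in 28W spleen (-0.87). *Npm1*, a nucleolar chaperone, followed at -0.56, and *Ldha* (-0.27) and *Cad* (-0.21) were nearest 0. Between kidney and 28W spleen 10 of 11 lay below 0 with a median of -0.44 beside 0.07 for all genes, and *Srm* (-1.32) and *Cad*, the first enzyme of pyrimidine synthesis (-1.03), passed 2-fold lower. *Odc1*, ornithine decarboxylase, was higher in the kidney at 1.25, and at 0.30 without the marked clusters. *Cdk4* had the next value, -0.22. Over the 33 clusters, centred within each library, the level of *Myc* and the summed list had a Pearson r of 0.731, and of 0.857 over the 24 unmarked clusters. The points of such a correlation share libraries, depth and base totals, and it is given as a description.

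**Figure D3:**
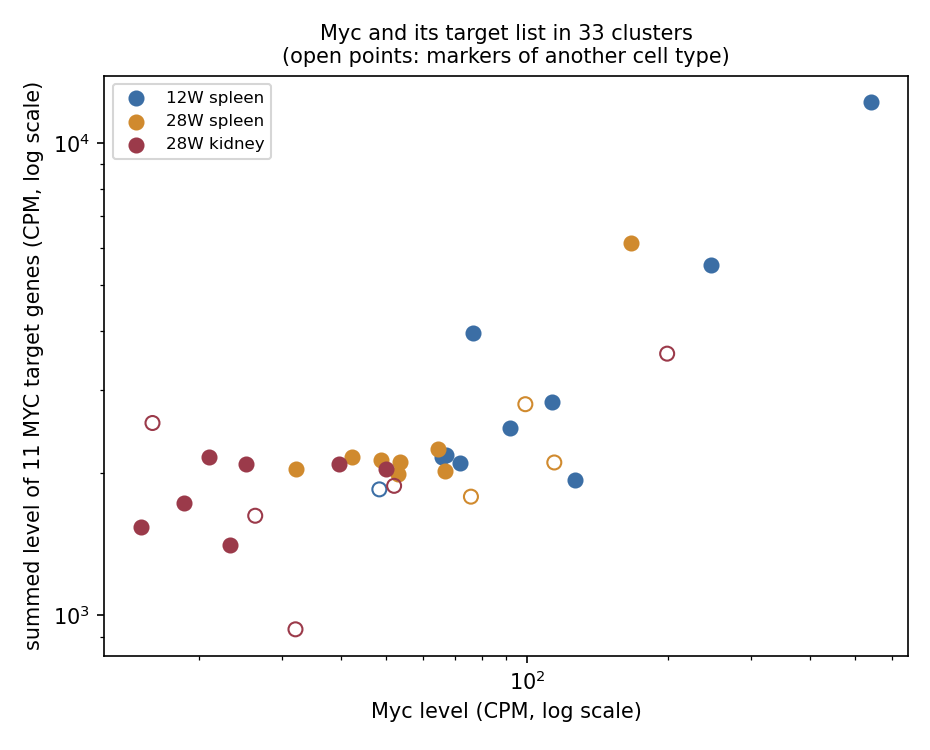
Level of *Myc* (horizontal axis, CPM, log scale) and summed level of 11 MYC target genes (vertical axis, CPM, log scale) in 33 clusters, coloured by library, with marked clusters as open points. Cluster 7 of 12W spleen is at the top right with 541 and 12191 CPM, and cluster 6 of 28W spleen has 167 and 6147 CPM.

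*Nfatc1* encodes NFATc1, the calcineurin-activated factor whose short form is itself induced by receptor signal, and its level was nearly the same in all libraries. It stood at 90.6 CPM in 12W spleen (87.4 to 93.8), 99.8 in 28W spleen (96.3 to 103) and 96.3 in 28W kidney (92.8 to 99.9). The log2 differences were 0.14 with age and -0.05 between the organs, the latter with an interval from -0.12 to 0.02, and without the marked clusters 0.11 and -0.03. Isoforms were not separated in these tables. Its highest and lowest clusters were closer together, as a ratio, than those of any other member in each of the 3 libraries, at 228 and 53.8 CPM, 336 and 68.1 CPM, and 176 and 54.9 CPM, and it was past 2-fold higher in 2 of 33 and lower in none. Of the 10 other genes of the calcineurin and NFAT list, 9 had at least 10 CPM, none passed 2-fold with age and 1 did in the kidney, *Ppp3ca*, the calcineurin catalytic subunit, with 35.2 CPM in 28W spleen and 72.9 in the kidney (1.03). With age *Itpr1* (0.44) and *Nfatc2* (0.30) were highest and *Orai1* (-0.20) and *Cabin1* (-0.07) lowest. In the kidney *Nfatc2* followed *Ppp3ca* at 0.62, with *Stim1* (-0.21) and *Cabin1* (-0.16) lowest.

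**Figure D4:**
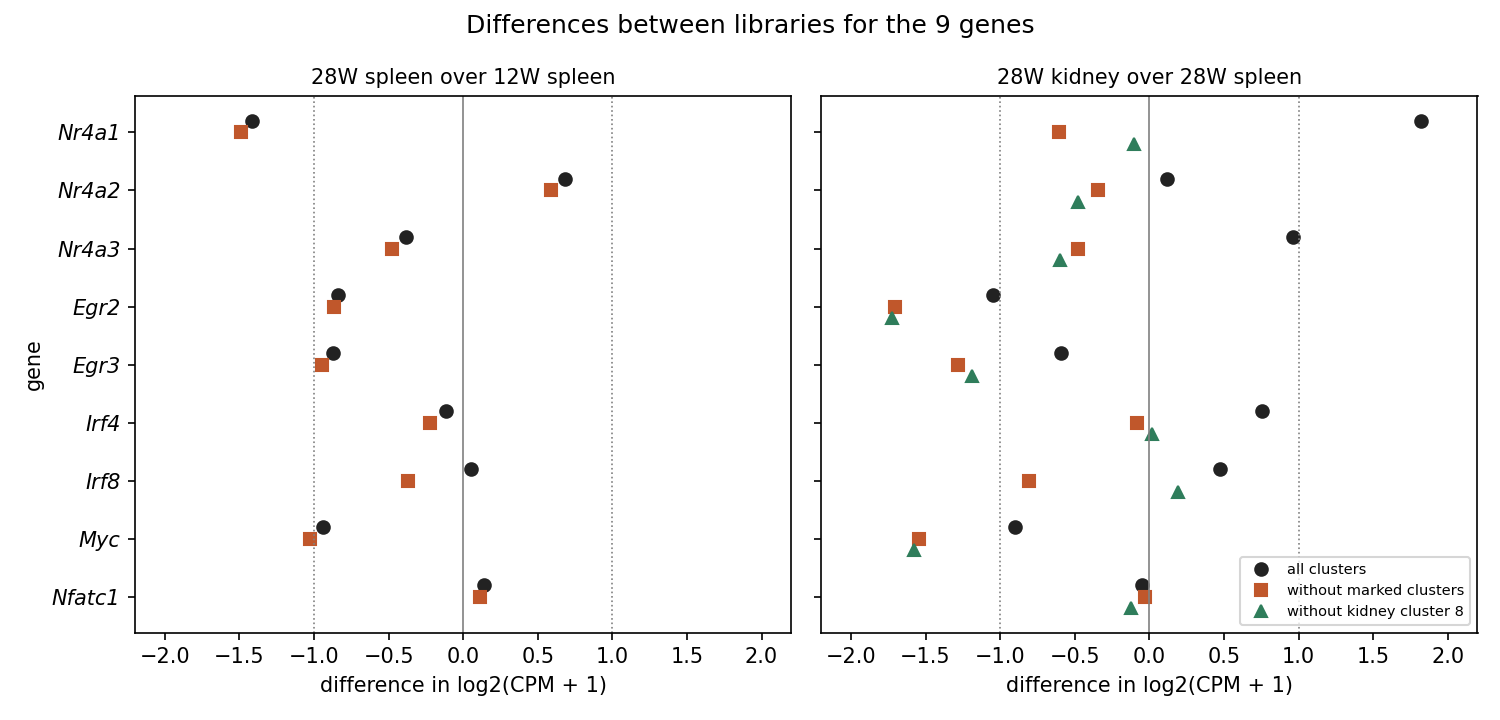
Differences in log2(CPM + 1) between libraries (horizontal axes) for the 9 genes, for all clusters (circles), without marked clusters (squares) and, for the kidney, without its cluster 8 (triangles), with dotted lines at 2-fold. For 28W kidney over 28W spleen *Nr4a1* lies at 1.82 with all clusters and at -0.61 without the marked ones, while *Nfatc1* stays near 0.

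As a list the 9 genes had a median log2 difference of -0.38 with age, beside -0.10 for all genes, with 6 below and 3 above 0. Between kidney and 28W spleen the median was 0.12 beside 0.07, with 5 above 0. Without the marked clusters it was -0.61 beside 0.06, and all 9 lay below 0. The 28W spleen library enters both comparisons, so they are not independent of each other.

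Within libraries, each cluster was compared with the other cells of its library, and called past 2-fold where its interval also left out their level and the higher of the 2 levels was at least 10 CPM. Of 297 pairs of a member and a cluster, 31 were higher and 76 lower, beside 7.19% of all pairs of a gene and a cluster higher and 6.99% lower. By library these were 12 higher and 21 lower of 90 pairs at 12W in the spleen (all genes 7.95% and 6.55%), 11 and 16 of 99 at 28W in the spleen (6.81% and 4.92%), and 8 and 39 of 108 in the kidney (6.91% and 9.16%). The clusters were made on these same cells, so the values describe them and are not a test. *Irf8* had the most pairs, with 5 clusters higher and 20 lower, and *Nr4a1* had 3 higher and 19 lower. *Egr3* had none, but it stayed under 10 CPM in every cluster, so the rule could not call it. *Egr2* had 2 higher and 1 lower. The 297 pairs include those with both levels under 10 CPM, while the shares of all genes leave such pairs out.

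**Figure D5:**
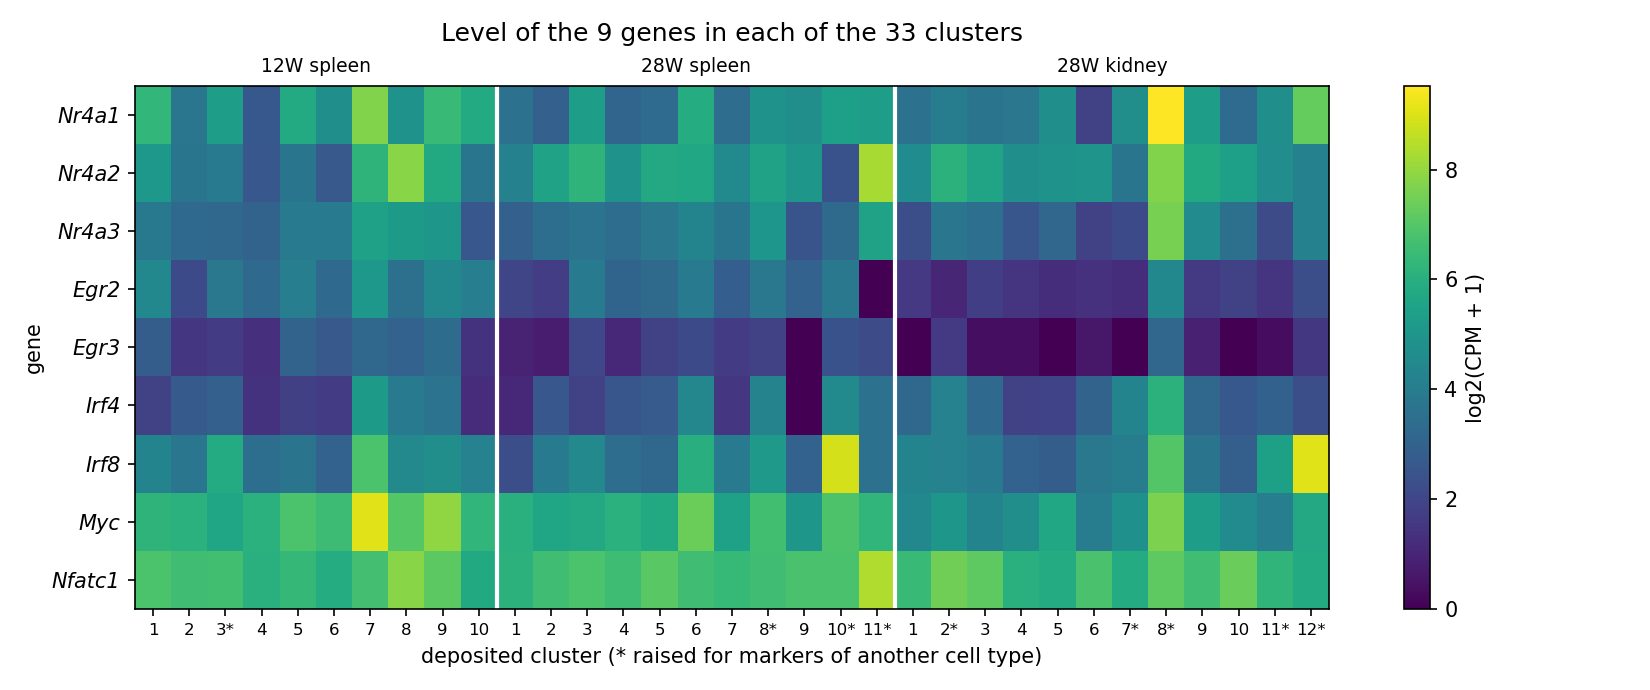
Levels of the 9 genes (vertical axis) in the 33 deposited clusters (horizontal axis, by library) as log2(CPM + 1), with an asterisk on the 9 clusters raised for markers of another cell type. Cluster 7 of 12W spleen and cluster 8 of 28W kidney are bright for most genes, and clusters 8 of 12W spleen and 11 of 28W spleen for *Nr4a2* and *Nfatc1*.

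Several members were past 2-fold together in the same clusters. In 12W spleen the cluster with the most was 7, with 372 cells and 13406 UMIs per cell, where 7 of the 9 were past 2-fold (all but *Egr3* and *Nfatc1*), beside 14.3% of all genes higher there. *Nr4a1* had 211 CPM, *Nr4a2* 73.0, *Nr4a3* 42.7 and *Irf8* 112. B cell markers were near absent, with *Ms4a1* at 3 UMIs, *Pax5* and *Ighd* at 0 and the summed list at 101 CPM, the lowest of the library. The CD8+ T cell list was also the lowest of the library in this cluster, at 2962 CPM beside a median of 5448 over the clusters. *Cd3e* was at 595 CPM beside 1193 in the other cells, and *Cd8a* was nearly level (584 beside 592). Of that list only *Pdcd1* was higher than in the other cells (54.3 beside 33.6). The MYC target list of this cluster was at 12191 CPM and its list of other receptor-induced genes at 3819 CPM, each the highest in 12W spleen.

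In 28W spleen the cluster with the most was 6, with 528 cells and 12209 UMIs per cell, where *Nr4a1* (59.1 CPM), *Irf4* (20.0), *Irf8* (62.1) and *Myc* (167) were past 2-fold, beside 10.2% of all genes. It was raised for cycling genes, at 1794 CPM. Cluster 11 of that library followed with 3, *Nr4a2*, *Nr4a3* and *Nfatc1*, beside 36.0% of all genes. It had the highest summed level of the 9 genes in 28W spleen (827 CPM). The same 3 were past 2-fold in cluster 8 of 12W spleen, beside 42.8% of all genes. Neither count was thus above the share of all genes. In 28W kidney the cluster with the most was 8, where 7 of the 9 were past 2-fold, beside 7.57% of all genes. The 7 were the same as in cluster 7 of 12W spleen: *Nr4a1*, *Nr4a2*, *Nr4a3*, *Egr2*, *Irf4*, *Irf8* and *Myc*. *Egr3*, under 10 CPM in both clusters, could not be called. The shares of *Nr4a1* within the NR4A family were 64.6% in cluster 7 of 12W spleen (62.2 to 66.9), 46.1% in cluster 6 of 28W spleen (42.6 to 49.5) and 64.7% in cluster 8 of the kidney (63.0 to 66.3). Dissociation genes, which rise when tissue is handled warm, were summed at 9975 CPM in cluster 8, the highest of the kidney, beside 2360 CPM in cluster 7 of 12W spleen and 2497 CPM in cluster 6 of 28W spleen. Their part in the values of cluster 8 was not tested.

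In both spleens *Nr4a2* and *Nfatc1* were highest in clusters of little RNA. Cluster 8 of 12W spleen had 928 UMIs per cell and 8.98% mitochondrial UMIs, and held *Nr4a2* at 225 CPM (173 to 287) and *Nfatc1* at 228 CPM (176 to 291). Cluster 11 of 28W spleen had 1288 UMIs per cell and 6.64% mitochondrial UMIs, with *Nr4a2* at 307 CPM (245 to 380) and *Nfatc1* at 336 CPM (271 to 411). It was one of the marked clusters, with the plasma cell list at 1109 CPM beside a median of 51.0, of which *Jchain* made up 1004, and it was raised for cycling genes, at 657 CPM. Cluster 8 of 12W spleen was raised for the cycling list only. In these 2 clusters that rested on *Mki67* (376 and 307 CPM, beside 35.5 and 35.7 in the other cells) and *Top2a* (204 and 177, beside 51.9 and 53.5). *Stmn1* (59.7 and 72.2, beside 182 and 138), *Birc5*, *Pclaf* and *Cdk1* were lower in both. *Tyms* was level with the other cells in the first and lower in the second. The part of plasma cells and cycling cells in the levels was not tested. In the same clusters 42.8% and 36.0% of all genes were past 2-fold higher, so these members moved with a large part of the transcriptome. Ribosomal protein genes took 4.48% and 10.0% of the UMIs there, beside 28.8% in cluster 7 of 12W spleen. Counted per 1000000 UMIs of the remaining genes, without receptor, mitochondrial and ribosomal protein genes, *Nr4a2* was still past 2-fold in both (log2 2.76 and 2.53 over the other cells), as was *Nfatc1* (1.01 and 1.46), with 34.1% and 26.3% of all genes. On that total *Nr4a3* was not past 2-fold in cluster 8 of 12W spleen (0.77, from 10 UMIs). In cluster 11 of 28W spleen it was (1.49, from 12 UMIs). In the kidney *Nfatc1* was highest in cluster 2 (176 CPM), which had 1200 UMIs per cell and 10.8% mitochondrial UMIs, but it was not past 2-fold there. *Nr4a2* was highest in kidney cluster 8 (211 CPM), which had 5151 UMIs per cell.

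Over the 33 clusters the members tended to be high together. Of 36 pairs of members, 34 had a Pearson r above 0 with a median of 0.558 and a range from -0.03 to 0.811, and over the 24 unmarked clusters all 36 were above 0 with a median of 0.592. *Nr4a3* and *Egr3* had the highest r, 0.811. *Nr4a2* and *Nfatc1* followed at 0.799, and both had their highest spleen values in the clusters of little RNA. *Irf4* and *Irf8* had an r of 0.535 over all clusters and 0.876 over the unmarked ones. *Nr4a1* was nearer to *Egr2* (0.751) and *Nr4a3* (0.753) than to *Nr4a2* (0.413). *Irf8* had an r of 0.778 with the summed B cell list and the same with the myeloid list, which was -0.468 and 0.175 over the unmarked clusters. *Nr4a2* had an r of 0.931 with the list of other receptor-induced genes. The other members ran from 0.160 (*Irf8*) to 0.858 (*Nr4a3*), with *Nr4a1* at 0.547. That list was high in the clusters of little RNA, 8 of 12W spleen (3749 CPM) and 11 of 28W spleen (4612 CPM), and in kidney cluster 8 (5240 CPM). The part of these clusters in the r values was not tested.

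The genes most like each member over the clusters, out of 7610, were found on the same scale. For *Nr4a1* they were *Cd83* (r 0.808), *Siah2* (0.805) and *Pim3* (0.803). *Nr4a2* had *Rnf19a* (0.914), *Cox11* (0.909) and *Ppp2r2a* (0.908), and *Nr4a3* had *Gadd45b* (0.853), *Kdm6b* (0.841) and *Per1* (0.839). *Egr2* had *Pla2g12a* (0.759), *Nr4a1* and *Pou2af1* (0.723), the last a B cell coactivator gene. For *Egr3* they were *Nr4a3*, *Egr1* (0.795) and *Myc* (0.784), so other early response genes led. *Irf4* had *Odc1* (0.870), *Got1* (0.841) and *Nfkbid* (0.823), and *Irf8* had *Marcksl1* (0.914), *Tubb2a* (0.897) and *Pld4* (0.894). *Myc* had *Mybbp1a* (0.880), *Amd1* (0.864) and *Ccdc86* (0.817), of which the first encodes a nucleolar protein and the second a polyamine enzyme. *Nfatc1* had *Strn4* (0.911), *Chd1* (0.911) and *Rexo1* (0.894). Over the 24 unmarked clusters the first were *Marcksl1* (0.860) for *Nr4a1*, *Kdm2b* (0.941) for *Nr4a2*, *Prmt3* (0.884) for *Nr4a3*, *Srsf6* (0.829) for *Egr2*, *Nr4a3* (0.769) for *Egr3*, *Nol10* (0.937) for *Irf4*, *Etf1* (0.929) for *Irf8*, *Mybbp1a* (0.937) for *Myc* and *Pigm* (0.931) for *Nfatc1*. *Mybbp1a* and *Nr4a3* were thus the only ones that led for the same member in both sets of clusters.

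Other genes induced by the antigen receptor did not move as one list. Of 17 listed genes 15 had at least 10 CPM in the spleens, of which 2 were past 2-fold higher and 2 lower with age, with a median over the list of -0.07 beside -0.10 for all genes. *Tnfrsf9*, the costimulatory receptor 4-1BB, had 99.7 CPM at 12W, 38.3 in the 28W spleen and 17.2 in the kidney, and was past 2-fold lower in both comparisons (-1.36 and -1.11). *Xcl1*, a chemokine of activated CD8+ T cells, had 366, 163 and 145 CPM and was lower with age (-1.16). In 12W spleen *Tnfrsf9* and *Xcl1* were highest in cluster 7, at 523 and 2088 CPM, a cluster with 14.4% of the library's UMIs. In 28W spleen both were highest in cluster 6, at 153 and 584 CPM. The part of these clusters in the age differences was not tested. *Ctla4*, an inhibitory receptor gene, was at 32.6, 95.6 and 43.9 CPM, higher with age (1.52) and lower in the kidney (-1.11). *Bhlhe40*, the gene of a factor of resident T cells, was at 5.07, 20.9 and 86.0 CPM and higher in both (1.85 and 1.99). In the kidney 4 of 16 genes were higher and 2 lower, beside the 5.31% and 1.34% of all genes. There were 3 higher and 4 lower without the marked clusters, beside 2.55% and 2.22%, since *Cd83* was no longer higher while *Cd69* (-1.10) and *Spry1* (-1.22) were lower. The higher ones besides *Bhlhe40* were *Dusp5*, a phosphatase of ERK (10.4 CPM in 28W spleen and 47.9 in the kidney), *Cd83* (10.6 and 28.9 CPM, 1.36, and 0.05 without the marked clusters) and *Pdcd1*, the gene of PD-1, on which the cells were sorted (34.7 and 115 CPM, 1.70).

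The partners of the members differed less, apart from the AP-1 genes. *Egr1*, an early response gene of the same family, had 59.8 CPM at 12W, 37.7 in the 28W spleen and 40.9 in the kidney, and the EGR corepressor gene *Nab2* was at 41.8, 27.3 and 19.1 CPM. Their log2 differences were -0.65 and -0.60 with age and 0.11 and -0.50 between the organs, and *Nab1* had 0.23 and 0.16, so none of the 3 passed 2-fold. *Egr1* was at -0.74 between the organs without the marked clusters. Of the 10 genes of MYC partners and rivals, 7 with at least 10 CPM in the spleens and 8 between the organs, none passed 2-fold in either comparison. With age *Mxd1* (0.63) and *Mxi1* (0.11) were highest and *Mxd4* (-0.27) and *Mycn* (-0.25, under 1 CPM) lowest, and in the kidney *Mxd3* (0.94) and *Mxd1* (0.85) were highest and *Max* (-0.21) and *Mga* (-0.13) lowest. *Mxd3*, whose highest kidney cluster was the cycling cluster 11 (95.3 CPM), turned to -2.56 without the marked clusters, under 10 CPM in both libraries. Of the 9 genes of IRF partners, of which 6 and 7 had at least 10 CPM, *Junb* (1.52) and *Jun* (1.18) were past 2-fold higher with age, with *Ikzf1* (-0.19) and *Ikzf3* (-0.10) lowest. In the kidney *Spi1*, the gene of the myeloid and B cell factor PU.1, was past 2-fold higher, with 6.34 CPM in 28W spleen and 22.5 in the kidney (1.68), and at 0.12 without the marked clusters. *Batf3* (0.97, under 10 CPM) followed, and *Ikzf1* (-0.26) and *Junb* (-0.22) were lowest, of which *Junb* was past 2-fold lower without the marked clusters (-1.17).

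Genes known to rise during tissue dissociation, which include immediate early genes, went against *Nr4a1* and the EGR genes with age. Of 13 with at least 10 CPM, 8 were past 2-fold higher in 28W than in 12W spleen, beside the 1.79% of all genes. *Fos* had 123 CPM at 12W, 459 in the 28W spleen and 196 in the kidney. *Junb* had 309, 884 and 757 CPM, *Jun* 141, 320 and 358 CPM, and *Dusp1* 63.6, 192 and 135 CPM. These AP-1 and phosphatase genes were thus lowest in 12W spleen, where *Nr4a1*, *Egr2*, *Egr3* and *Myc* of the unmarked clusters were highest. *Fosb* (10.9, 44.4 and 32.3 CPM) and *Zfp36* (192, 455 and 231 CPM) had the same order of the spleens. The heat shock genes *Hspa1a* (2.65, 24.9 and 670 CPM) and *Hspa1b* (3.83, 28.4 and 320 CPM) are near-identical copies, so how their UMIs divide between them is uncertain. The lowest of the list with age were *Hsp90aa1* (-0.05) and *Ier3* (0.32). In the kidney *Hspa1a* (4.69), *Atf3* (3.56, from 0.812 to 20.3 CPM) and *Hspa1b* (3.45) were past 2-fold higher and *Fos* (-1.23) lower, followed by *Zfp36* (-0.98). With the marked clusters left out 2 of 13 were higher and 5 lower: *Atf3* (1.16, under 10 CPM) was no longer counted, and *Fosb* (-2.23), *Zfp36* (-1.41), *Junb* (-1.17) and *Dusp1* (-1.13) joined *Fos* (-1.68). The kidney was digested with collagenase and no such step is described for the spleen, so the organ and the preparation cannot be told apart.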

How the data were processed

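Single-cell RNA sequencing was performed by the study on PD-1+CD44+CD8+ T cells with the 10x Genomics 5′ v2 chemistry. For each of the 3 groups the authors deposited a table with a signal per gene and cluster, the mean UMI count per cell scaled to the median depth of the library, and the cluster of every cell. These tables also hold the authors' own fold changes and adjusted p-values, which were not used. The submitters' processing notes name Cell Ranger 2.1.1 and R 3.6.1 with GRCm38, and the methods name a later Cell Ranger vdj pipeline. The annotation release, cell filter and treatment of doublets are not given in the sources used here. There were 0 columns of unmapped samples.

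Each column of means held whole multiples of 1 UMI, with a tolerance of 0.001. After this step the UMIs were summed over clusters and divided by the library total (CPM), since the tables had been normalized separately. Differences are of log2(CPM + 1), which understates changes of low genes, and counted as past 2-fold where either library had at least 10 CPM. Of the 9 genes, 7 met this in each comparison. With 1 library per group no p-value was computed. The 95% intervals are exact and cover counting error only. For a count of 0 a fixed floor of 3 counts was used, or 0.0864 to 0.100 CPM per library. This floor lies below the upper end of the exact interval for a count of 0. A cluster was counted as lower than the other cells of its library where either level was at least 10 CPM, a wider filter than the planned one on the cluster alone, chosen after the data were seen. Clusters marked for other cells had a marker list at least 5-fold over the median cluster and at least 100 CPM.

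All 9 members were named. Also named were the 3 genes most correlated with each over clusters on log2(CPM + 10), centred by library, among genes with a mean of at least 10 CPM, and of each pathway list the genes past 2-fold and the 2 highest and 2 lowest. Members and lists were chosen with earlier results of these data known. Alternatives covered scaling, pseudocount, filter, fold and clusters left out. The code was tested on simulated data, with Python 3.11.15, numpy 2.4.6, pandas 2.3.3, scipy 1.17.1 and matplotlib 3.10.9. The clonotype tables were not analysed here. The values of 1 marker of the B cell list are not reported here.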

Additional observations from a re-analysis of the deposited data

How the results depend on the processing

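No paired analysis was possible because the tables pool the samples of a group and carry no replicate numbers, and for the same reason no replicate could be left out. By age, 1 of the 9 genes was past 2-fold, lower. This was 2, both lower, without clusters marked for other cells, 3, all lower, without cycling clusters, and 4 (1 higher, 3 lower) at 1.5-fold. No share of all genes stands beside the counts in this section, and that share may change with the setting. The counts show only how the calls depended on the setting. The median of -0.38 was -0.13 on the deposited means averaged over cells, -0.91 without cycling clusters and 0.019 without each gene's highest cluster. By organ, 1 gene was past 2-fold, higher. There were 3 (2 lower) on the total without receptor, mitochondrial and ribosomal genes, 2 (both higher) with a pseudocount of 0.1, 2 (1 lower) with no filter on low values, 3 (all higher) without cycling clusters and 4 (3 higher, 1 lower) at 1.5-fold. Without marked clusters, without kidney cluster 8 (chosen after seeing the data) or without each gene's highest cluster, 0 were higher and 1 lower, and the median of 0.12 became -0.61, -0.48 and -0.40. It was -0.034 on the reduced total and 0.0087 on the deposited means. The *Nr4a1* difference by organ turned from 1.82 to -0.61 without marked clusters and to -0.10 without kidney cluster 8. Pairs of gene and cluster past 2-fold numbered 107 (31 higher, 76 lower). They were 45 (20 and 25) at 50 CPM, 51 (17 and 34) without marked clusters and 63 at 3-fold, 42 of them lower. On the reduced total, chosen after seeing the data, they were 120 (30 and 90). Of 162 differences of single genes under an alternative, 17 had another sign than the value reported first, in 9 of the 18 pairs of a gene and a comparison, and the 2 of *Nr4a1* were the ones where that value was past 2-fold. By organ the sign changed in 4 of 9 alternatives for *Nr4a2*, 3 for *Nr4a3* and 1 each for *Irf4*, *Irf8* and *Nfatc1*, and by age in 2 each for *Irf4* and *Irf8* and 1 for *Nr4a3*. The causes were not tested. Depth limited *Egr3* most, with 32 UMIs in the kidney, and replicate error is unknown for every value.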
